A study of Mus musculus with 18 samples.

Results

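The MHC class II presentation genes described here are *H2-Aa*, *H2-Ab1*, *H2-Eb1*, *H2-DMa*, *H2-DMb1*, *H2-DMb2*, *H2-Oa*, *Cd74*, *Ciita* and *Ctss*, a list of 10 genes taken by name from a count table of 47729 genes from mouse colon. All 10 had enough reads to be tested, among 16937 genes that passed the filter on low counts. Their transcripts were measured in 18 RNA-seq libraries, 3 in each of 6 groups that combine 2 genotypes with 3 treatments.

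The genotypes were wild-type (WT) mice and *Cldn2*KO mice, in which the gene of the tight junction protein claudin-2 is deleted, on a C57BL/6 background with littermates as the controls. The control groups of both genotypes are labelled as controls with no agent named. The recovery groups had colitis induced by dextran sulfate sodium (DSS) in drinking water and were then allowed to recover. The AOM/DSS groups received 1 injection of the carcinogen azoxymethane (AOM) at 10 mg/kg and 3 cycles of 2.5% DSS, a model of colitis-associated cancer. Neither the age of the mice behind each library, nor the DSS dose and days of the recovery groups, nor whether AOM/DSS tissue was tumor or its surroundings is given in the sample labels. The labels do not say that each library is a separate animal, so p-values measure the spread between these libraries.

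MHC class II molecules are pairs of an alpha and a beta chain that carry peptides of endocytosed proteins to the cell surface, where CD4+ T cells read them. The chains are assembled on the invariant chain CD74, cathepsin S trims that chain to a short remnant, and H2-DM exchanges the remnant for peptide under the restraint of H2-DO. Professional antigen-presenting cells such as B cells, dendritic cells and macrophages express these genes constantly, and the colon epithelium can express them when interferon gamma induces CIITA, the coactivator that acts at their promoters.

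CIITA is brought to class II promoters by factors that bind an X box and, a fixed distance downstream, a Y box, so these elements are shown for the members whose promoters were at hand. The RefSeq promoters of build GRCm38.p6 gave 8 windows for 7 of the 10 genes, and none for *H2-Ab1*, *Ciita* or *Cd74*. Each window of 250 bases before the RefSeq start was searched on both strands for the X core letters CNAGNNAC followed by the Y core letters ATTGG, with 25 to 45 bases between their first letters. In the stretches below, written 5′ to 3′ on the gene's strand, capitals mark the X core and, where it lies within the stretch, the Y core of such a pair, and *H2-Aa* is shown as the most abundant class II chain without a pair under these letters. Bases past the gene's own start in the count table's annotation were cut to at most 30.
H2-Eb1 promoter, chr17:34305617-34305866, plus strand: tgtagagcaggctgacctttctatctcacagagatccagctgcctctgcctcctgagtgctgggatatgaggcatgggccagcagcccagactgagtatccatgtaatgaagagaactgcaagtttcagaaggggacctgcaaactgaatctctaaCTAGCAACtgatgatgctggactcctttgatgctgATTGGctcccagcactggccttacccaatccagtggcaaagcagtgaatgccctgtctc
H2-DMb1 promoter, chr17:34152941-34153101, plus strand: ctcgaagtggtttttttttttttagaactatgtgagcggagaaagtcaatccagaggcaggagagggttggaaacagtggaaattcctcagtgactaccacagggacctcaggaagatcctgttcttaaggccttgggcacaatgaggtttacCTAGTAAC
H2-Oa promoter, chr17:34092129-34092369, plus strand: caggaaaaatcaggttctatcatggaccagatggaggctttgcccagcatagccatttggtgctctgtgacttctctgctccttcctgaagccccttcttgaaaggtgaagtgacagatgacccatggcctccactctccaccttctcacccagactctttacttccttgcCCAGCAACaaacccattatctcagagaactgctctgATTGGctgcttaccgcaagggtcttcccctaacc
H2-Aa promoter, chr17:34287824-34288073, minus strand: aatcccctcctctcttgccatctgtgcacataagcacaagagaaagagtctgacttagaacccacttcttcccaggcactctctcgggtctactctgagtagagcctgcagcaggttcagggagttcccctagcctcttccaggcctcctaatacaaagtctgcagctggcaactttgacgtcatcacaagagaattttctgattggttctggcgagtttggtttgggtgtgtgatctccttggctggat

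The pair was found on the gene's own strand in *H2-Eb1*, 94 and 59 bases before the RefSeq start, in *H2-DMb1*, 97 and 61 bases before it, and in *H2-Oa*, 79 and 43 bases before it. The first letters of the pair lay 35 bases apart in *H2-Eb1* and 36 bases apart in *H2-DMb1* and *H2-Oa*. In *H2-DMb1* both cores lie inside the gene as the count table places it, not before the counted gene. Of 32851 mouse promoters searched the same way, 261 held a pair (0.794%), whereas the X core alone was in 36.7% and the Y core alone in 33.8%. The windows of *H2-Aa*, *H2-DMa*, *H2-DMb2* and *Ctss* held no pair in these letters. Both windows of *H2-DMa*, chr17:34122582-34122831 and chr17:34125268-34125517, lie well upstream of the gene as the count table places it, and the window of *H2-DMb2*, chr17:34144999-34145248, lies inside that gene in the table, so neither shows the sequence just before the counted gene. The 250 bases before the RefSeq starts of *H2-DMb1* and *H2-DMb2* aligned with 174 identical bases in 291 columns (59.8%).

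Each library held 17643058 to 27390344 counted reads (median 19596026). *Cldn2*, the targeted gene, stood at 44.5 to 504 CPM in the 9 WT libraries and at 0.0555 to 0.557 CPM in the 9 *Cldn2*KO libraries, where CPM gives a gene's reads relative to the total of its library after TMM scaling. Summed markers of colon epithelium were 12083 CPM or more in every library. *Hoxb13*, a posterior Hox gene of the distal colon, was under 10 CPM in all 6 recovery libraries and in WT control 2, and *Xist*, the transcript of the inactive X chromosome of females, was over 10 CPM in 2 of 3 libraries of each recovery group and of the *Cldn2*KO AOM/DSS group and in no other library. Treatment comparisons and the genotype comparison after AOM/DSS are therefore given beside these marks, and WT control 2 was left out in turn.

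The first question was whether the members differed between *Cldn2*KO and WT colon. Of the 10 genes, 7 fell in *Cldn2*KO mice in the controls (1.05% of all genes tested fell) and 7 fell in recovery (0.425% of all genes fell). They were the same 7 genes: *H2-Aa*, *H2-Ab1*, *H2-Eb1*, *Cd74*, *H2-DMa*, *H2-DMb1* and *Ciita*. After AOM/DSS no member passed the test. The libraries of the 7 genes did not overlap between genotypes in controls, where 10.7% of all genes were lower without overlap, or in recovery, where 11.7% were. In the controls the mean CPM of these 7 genes was 14.4 to 24.7 times higher in WT than in *Cldn2*KO mice, in recovery it was 7.42 to 40.1 times higher, and after AOM/DSS it was 1.61 to 2.50 times higher. In whole tissue, fewer cells of a type and less RNA per cell cannot be told apart.

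**Figure D1:**
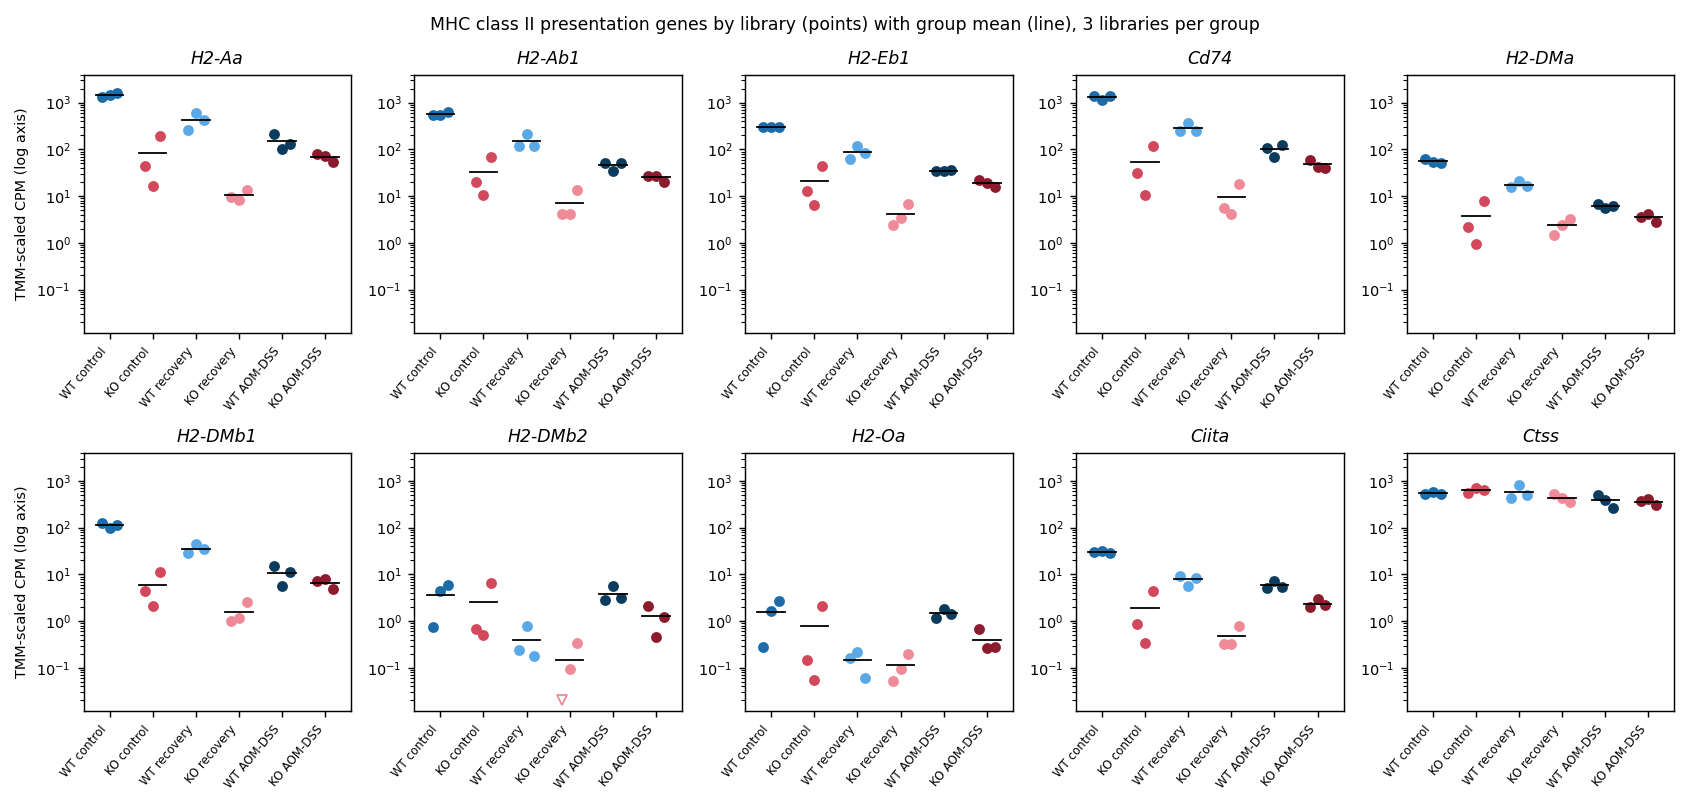
TMM-scaled CPM of each of the 10 members (vertical log axis) in every library of the 6 groups, with points for libraries, lines for group means and an open triangle for the library at 0 reads (KO stands for *Cldn2*KO). In the controls and in recovery the WT libraries of 7 genes sit above all *Cldn2*KO libraries, whereas *Ctss* lies between 261 and 834 CPM in all 18 libraries.

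*H2-Aa* and *H2-Ab1* encode the alpha and beta chains of the I-A molecule, and *H2-Eb1* encodes the beta chain of I-E, all on chromosome 17 (GRCm38): *H2-Ab1* at 34263209-34269418 on the plus strand, *H2-Aa* at 34282744-34287827 on the minus strand and *H2-Eb1* at 34305877-34316199 on the plus strand. *H2-Aa* was at 1290, 1435 and 1629 CPM in the 3 WT controls and at 44.5, 16.8 and 194 CPM in the 3 *Cldn2*KO controls. In recovery it was at 265, 588 and 428 CPM in WT mice and at 9.64, 8.44 and 13.8 CPM in *Cldn2*KO mice. After AOM/DSS it was at 213, 101 and 129 CPM in WT mice and at 78.0, 70.5 and 54.7 CPM in *Cldn2*KO mice. The libraries of the genotypes did not overlap under any treatment, and *Cldn2*KO control 3 stood well above the other *Cldn2*KO controls. The log2 fold change of *H2-Aa* in *Cldn2*KO against WT mice was -4.09 in controls (SE 0.670, adjusted p = 0.00713) and -5.33 in recovery (SE 0.714, adjusted p = 0.00474).

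The partner chain followed the same course. *H2-Ab1* was at 537, 543 and 639 CPM in WT controls and at 19.7, 10.3 and 69.3 CPM in *Cldn2*KO controls. In recovery *H2-Ab1* was at 119, 213 and 121 CPM against 4.07, 4.18 and 13.4 CPM. The AOM/DSS groups were at 50.1, 35.02 and 50.6 CPM against 27.5, 27.1 and 20.5 CPM. No *Cldn2*KO library reached a WT library of its own treatment. The log2 fold change was -4.11 in controls (SE 0.618, adjusted p = 0.00456) and -4.39 in recovery (SE 0.633, adjusted p = 0.00830).

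*H2-Eb1*, whose promoter holds the X and Y cores shown above, was at 301, 308 and 309 CPM in WT controls (mean 306 ± 4.48 CPM, SD, n = 3). The *Cldn2*KO controls were at 12.8, 6.38 and 44.7 CPM. In recovery *H2-Eb1* was at 62.3, 117 and 82.7 CPM in WT mice and at 2.36, 3.39 and 6.64 CPM in *Cldn2*KO mice. After AOM/DSS the values were 35.1, 34.3 and 35.5 CPM against 22.6, 19.02 and 15.96 CPM, a small gap without overlap. *H2-Eb1* fell by 3.85 on the log2 scale in *Cldn2*KO controls (SE 0.553, adjusted p = 0.00348), and its log2 fold change in recovery was -4.40 (SE 0.579, adjusted p = 0.00444). An antisense gene model, *Gm20513*, overlaps *H2-Eb1*, and the strand setting of the counting is not given in the sources used here.

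*Cd74* (chromosome 18, 60803848-60812646, plus strand) encodes the invariant chain. Its level was 1376, 1140 and 1410 CPM in WT controls and 31.3, 10.8 and 117 CPM in *Cldn2*KO controls. The recovery groups were at 248, 369 and 249 CPM in WT mice and 5.46, 4.13 and 18.5 CPM in *Cldn2*KO mice. The AOM/DSS libraries were at 107, 67.6 and 124 CPM against 60.3, 42.1 and 40.7 CPM, which again did not overlap. Among the members *Cd74* had the largest fold change in controls, -4.63 on the log2 scale (SE 0.742, adjusted p = 0.00682), and in recovery it was -4.94 (SE 0.758, adjusted p = 0.0131).

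*H2-DMa* and *H2-DMb1* encode the alpha chain and a beta chain of the peptide exchange factor H2-DM and lie on chromosome 17 at 34135182-34139101 and 34153072-34160230, both on the plus strand. *H2-DMa* was at 62.2, 53.9 and 52.1 CPM in WT controls and at 2.17, 0.943 and 7.91 CPM in *Cldn2*KO controls. The recovery values were 15.8, 20.9 and 16.4 CPM against 1.499, 2.37 and 3.30 CPM. Those after AOM/DSS were 6.68, 5.69 and 6.05 CPM against 3.57, 4.15 and 2.82 CPM. All 3 pairs of groups stayed apart. *H2-DMa* fell by 3.93 on the log2 scale in *Cldn2*KO controls (SE 0.528, adjusted p = 0.00238) and fell by 2.88 in recovery (SE 0.514, adjusted p = 0.0239), the smallest change of the 7 genes in recovery. The antisense genes *Brd2*, *CR974462.4* and *Gm20493* overlap it.

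*H2-DMb1* was at 129, 99.3 and 114 CPM in WT controls and at 4.49, 2.11 and 11.03 CPM in *Cldn2*KO controls. Recovery left it at 28.3, 44.8 and 34.1 CPM against 1.02, 1.16 and 2.61 CPM. With AOM/DSS it was at 15.2, 5.69 and 11.4 CPM against 7.27, 8.08 and 4.76 CPM, and there the groups overlapped. Its log2 fold change was -4.28 in controls (SE 0.534, adjusted p = 0.00160) and -4.48 in recovery (SE 0.558, adjusted p = 0.00316). Of the 1629 windows of 50 bases in its transcripts, 369 (22.7%) also occur in the paralog *H2-DMb2*, so reads of the pair may have been exchanged or dropped in counting. With the counts of both paralogs summed, the log2 fold change was -3.80 in controls (adjusted p = 0.00352) and -4.37 in recovery (adjusted p = 0.00474).

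*Ciita* (chromosome 16, 10488178-10527564, plus strand) encodes the class II transactivator. It was at 30.5, 32.2 and 29.2 CPM in WT controls and at 0.887, 0.333 and 4.41 CPM in *Cldn2*KO controls. *Ciita* in recovery was at 9.40, 5.60 and 8.40 CPM in WT mice and at 0.321, 0.325 and 0.787 CPM in *Cldn2*KO mice, where the latter rest on 6, 7 and 16 reads. The AOM/DSS libraries held 5.08, 7.35 and 5.34 CPM against 1.997, 2.92 and 2.18 CPM. The regulator thus stood lower in *Cldn2*KO than in WT libraries without overlap under each treatment, as *H2-Aa*, *H2-Ab1*, *H2-Eb1*, *H2-DMa* and *Cd74* did. *Ciita* fell by 4.03 on the log2 scale in *Cldn2*KO controls (SE 0.622, adjusted p = 0.00485), and its log2 fold change in recovery was -4.01 (SE 0.664, adjusted p = 0.0166). The gene *Dexi* overlaps it on the minus strand.

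**Figure D2:**
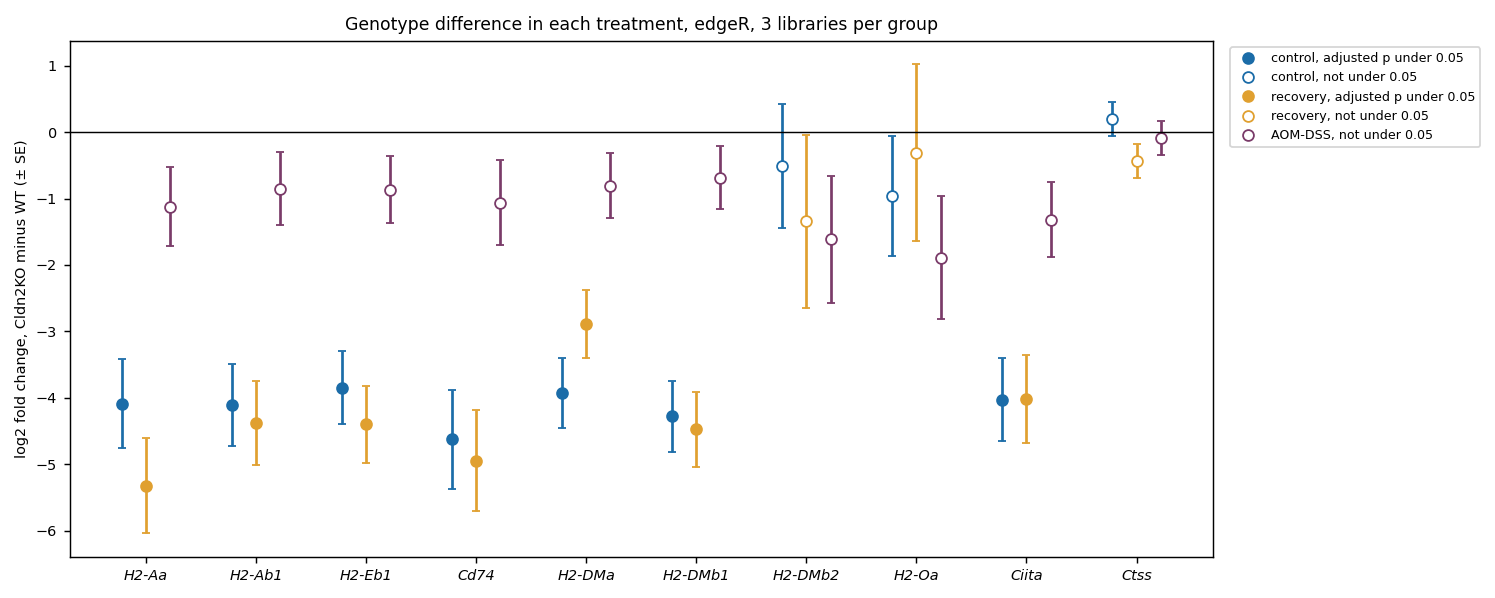
Log2 fold change of *Cldn2*KO against WT mice (vertical axis) for each member in controls, in recovery and after AOM/DSS, with bars of 1 standard error and filled points where the adjusted p is under 0.05. In controls 7 genes lie between -3.85 and -4.63 and in recovery between -2.88 and -5.33, whereas after AOM/DSS the same 7 lie between -0.69 and -1.32 with no filled point.

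In the controls, the median log2 fold change of the 10 members was -3.98 against -0.01 over all genes tested. The 3 members that did not pass the test there were *H2-Oa* at -0.96 (adjusted p = 0.729), *H2-DMb2* at -0.51 (adjusted p = 0.879) and *Ctss* at 0.20 (adjusted p = 0.817). The values of *H2-Oa* and *H2-DMb2* rested on *Cldn2*KO control 3, without which they were -3.83 (adjusted p = 0.0564) and -2.63 (adjusted p = 0.252). Without WT control 2, the control library with no *Hoxb13*, all 7 genes still passed, with log2 fold changes from -3.86 to -4.74. Without *Cldn2*KO control 1 only 3 passed, *H2-DMa*, *H2-DMb1* and *H2-Eb1*, with fold changes from -3.58 to -4.36 and adjusted p = 0.0269 to 0.0687 over the 7, and without *Cldn2*KO control 3 all 7 passed with fold changes from -5.01 to -5.97. When only the control libraries were fitted, *H2-DMb1* alone passed (adjusted p = 0.0468) and the other 6 reached up to adjusted p = 0.156, while the fold changes of the 7 were -3.85 to -4.64.

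Markers of cells that can carry class II were set beside this difference. The summed CPM of 10 B cell markers spanned 9.95 to 91.5 in WT controls and 3.06 to 112 in *Cldn2*KO controls, and none of the 10 passed the genotype test. Dendritic cell markers spanned 13.3 to 31.0 CPM against 4.72 to 15.3 CPM (0 of 9 tested passed) and macrophage and monocyte markers 284 to 424 CPM against 159 to 443 CPM (0 of 12 passed). T and NK cell markers did differ, at 13.3 to 161 CPM against 1.55 to 10.98 CPM, with 4 of 12 lower in *Cldn2*KO controls: *Cd3e* at -4.28, *Cd8a* at -3.89, *Gzmb* at -4.64 and *Nkg7* at -4.11 on the log2 scale. Smooth muscle markers stood at 3715 to 5588 CPM in WT and 7624 to 10059 CPM in *Cldn2*KO controls, where 0 of 8 passed. Pan-leukocyte markers spanned 40.1 to 163 CPM against 12.04 to 81.5 CPM (0 of 4 passed), and none of 10 epithelial, 5 posterior Hox or 2 tested ILC3 markers passed. The part of T and NK cells or of smooth muscle in the class II difference was not tested. The summed level of the 7 class II genes was 3612 to 4183 CPM in WT and 47.7 to 449 CPM in *Cldn2*KO controls.

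**Figure D3:**
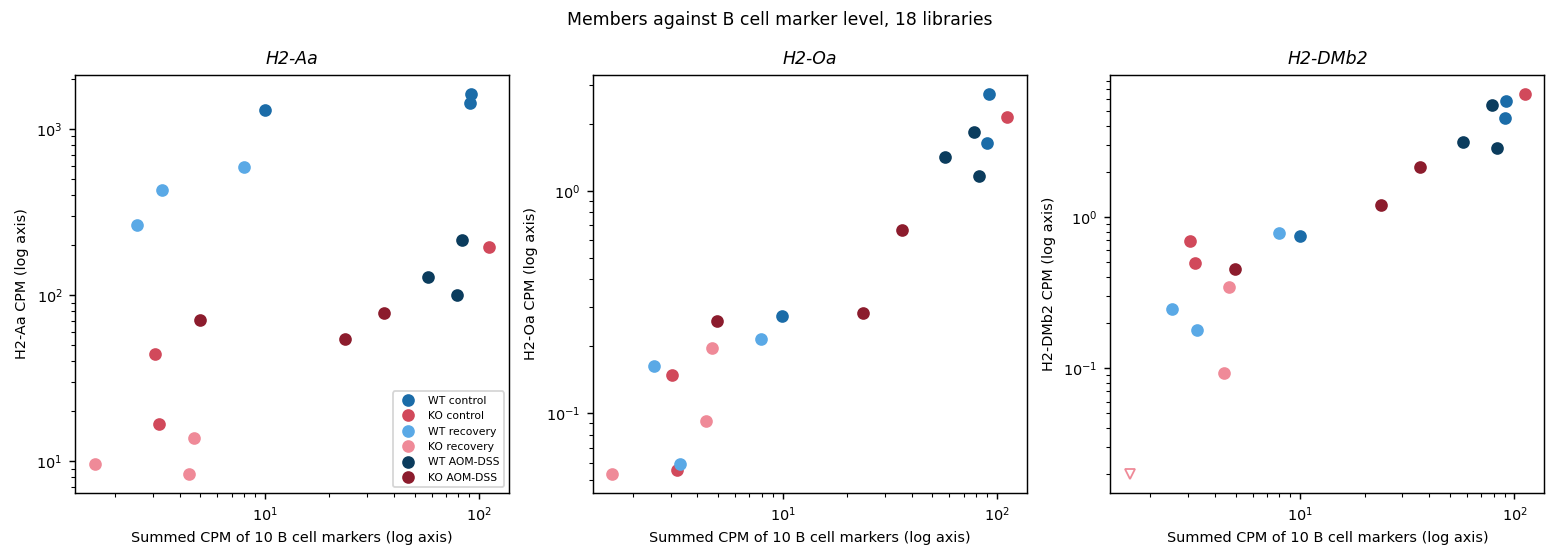
CPM of *H2-Aa*, *H2-Oa* and *H2-DMb2* (vertical log axes) against the summed CPM of 10 B cell markers (horizontal log axes), with 1 point per library colored by group and an open triangle for the library at 0 reads. WT control 1, with 9.95 CPM of B cell markers, is at 1290 CPM of *H2-Aa*, near the other WT controls, whereas in *H2-Oa* and *H2-DMb2* it stands with the libraries low in the markers.

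WT control 1 held 9.95 CPM of B cell markers and *H2-Aa* at 1290 CPM. *Cldn2*KO control 3 held 112 CPM of B cell markers and *H2-Aa* at 194 CPM. Within the *Cldn2*KO controls this library, the highest in B cell markers, was also the highest in *H2-Aa*, against 44.5 and 16.8 CPM in the other two. The part of B cells in the class II difference was not tested.

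In recovery the median log2 fold change of the 10 members was -4.20 against 0.00 over all genes. Besides the 7 genes that fell, *H2-DMb2* was at -1.34 (adjusted p = 0.619), *Ctss* at -0.43 (adjusted p = 0.359) and *H2-Oa* at -0.31 (adjusted p = 0.934). The 7 genes summed to 748 to 1359 CPM in WT and to 24.0 to 59.1 CPM in *Cldn2*KO mice. In the same libraries, B cell markers spanned 2.52 to 7.96 CPM against 1.61 to 4.67 CPM, dendritic cell markers 9.58 to 12.9 against 7.82 to 8.78, macrophage and monocyte markers 95.9 to 132 against 71.6 to 80.9, T and NK cell markers 61.9 to 200.2 against 26.9 to 43.4, and pan-leukocyte markers 34.5 to 69.4 against 24.9 to 35.4. The last 4 lists were thus lower in *Cldn2*KO mice in sum, without overlap except for the pan-leukocyte list, while no single marker of any list passed the test. Their part in the class II difference was not tested. Without *Cldn2*KO recovery 2 none of the 7 genes passed (adjusted p = 0.0505 to 0.159), with log2 fold changes from -2.88 to -5.18, and without WT recovery 2 or 3 *H2-DMa* was lost (adjusted p = 0.0953 and 0.0522).

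After AOM/DSS, 0 of the 10 members passed the edgeR test of genotype, where 0.0059% of all genes did. DESeq2 and limma-voom also called 0, and *Ciita* was the 1 member with an unadjusted p under 0.05 (log2 fold change -1.32, SE 0.566, adjusted p = 0.862). The other members ranged from -0.09 for *Ctss* to -1.89 for *H2-Oa*, and the median of all 10 was -0.96. The libraries of 8 members were nonetheless lower in *Cldn2*KO mice without overlap, as were 6.38% of all genes, and the exceptions were *H2-DMb1* and *Ctss*. B cell markers were also apart in these groups, at 57.5 to 82.6 CPM in WT and 4.97 to 36.0 CPM in *Cldn2*KO mice, as were T and NK cell markers, at 10.0 to 25.8 against 6.81 to 9.65 CPM, and pan-leukocyte markers, at 68.6 to 94.5 against 27.6 to 38.5 CPM. No marker passed the test, and their part was not tested. *Xist* was over 10 CPM in 2 of 3 *Cldn2*KO and in 0 of 3 WT libraries here. With *Xist* as a covariate the 7 class II genes lay between -0.89 and -1.40, and 0 passed.

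Whether the genotype difference itself changed with treatment was tested as an interaction, which shares the control libraries with the comparisons above. For recovery against control, 0 members passed (0.13% of all genes did), 0 had an unadjusted p under 0.05, DESeq2 called 0 and limma-voom called 1. For AOM/DSS against control, 0 members passed with edgeR (0.0118% of all genes did), while 7 had an unadjusted p under 0.05, at 2.71 to 3.59 on the log2 scale with adjusted p = 0.213 to 0.437. DESeq2 called 6 and limma-voom 7 of them, and edgeR called 7 without *Cldn2*KO control 3. A smaller class II difference after AOM/DSS than in controls was thus called or not depending on the tool and on that library. Among the groups of this interaction, *Xist* was over 10 CPM only in *Cldn2*KO AOM/DSS libraries.

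*Ctss* (chromosome 3, 95526786-95556403, plus strand) encodes cathepsin S, the protease of the invariant chain. It was at 521, 585 and 538 CPM in WT controls and at 550, 701 and 635 CPM in *Cldn2*KO controls. The recovery libraries held 433, 834 and 508 CPM against 521, 434 and 359 CPM. After AOM/DSS it was at 497, 396 and 261 CPM against 371, 406 and 309 CPM. The genotypes overlapped under every treatment, and in the order of the means WT controls stood apart from *Cldn2*KO recovery, the next lower group, while the other neighbors overlapped. Its log2 fold changes were 0.20 (SE 0.251), -0.43 (SE 0.252) and -0.09 (SE 0.251) in the 3 genotype comparisons.

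*H2-Oa*, the alpha chain of the H2-DM inhibitor H2-DO (chromosome 17, 34092340-34095234, plus strand), and *H2-DMb2* (34143307-34151553 on the same strand) had few reads. *H2-Oa* was at 0.275, 1.64 and 2.74 CPM in WT controls and at 0.148, 0.0555 and 2.15 CPM in *Cldn2*KO controls. In recovery its groups held 8 and 7 reads in all, at 0.163, 0.215 and 0.0591 CPM in WT mice and 0.0535, 0.0928 and 0.197 CPM in *Cldn2*KO mice. After AOM/DSS it was at 1.16, 1.84 and 1.42 CPM against 0.666, 0.260 and 0.282 CPM. In both genotypes the control library highest in *H2-Oa*, number 3, was also the highest in B cell markers. The antisense gene *BC051537* overlaps *H2-Oa*.

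*H2-DMb2* encodes a beta chain close in sequence to *H2-DMb1*. It was at 0.747, 4.52 and 5.87 CPM in WT controls and at 0.690, 0.499 and 6.57 CPM in *Cldn2*KO controls. In recovery it was at 0.244, 0.789 and 0.177 CPM in WT mice and at 0, 0.0928 and 0.344 CPM in *Cldn2*KO mice, or 0, 2 and 7 reads, where a count of 0 allows up to 3. After AOM/DSS it was at 2.86, 5.52 and 3.12 CPM against 2.14, 0.454 and 1.20 CPM. Across the 18 libraries the log2 CPM of *H2-Oa* and *H2-DMb2* correlated with the B cell list at r = 0.966 and r = 0.946. These values describe libraries that differ in depth and in cell marker levels. The 7 class II genes correlated with that list at r = 0.363 to 0.53 and with the mean of their own other members at r = 0.96 to 0.995. Against the dendritic cell list the 7 stood at r = 0.681 to 0.774. Against the macrophage and monocyte list they stood at r = 0.384 to 0.592 and against the T and NK cell list at r = 0.423 to 0.594. With 2 lists described below, class I presentation and the interferon gamma axis, the values were higher, r = 0.889 to 0.95 and r = 0.813 to 0.889. *H2-Ob*, the beta chain of H2-DO, named here after its values were seen, was at 2.83, 14.2 and 16.5 CPM in WT controls and at 0.986, 0.277 and 14.05 CPM in *Cldn2*KO controls, the same libraries being high.

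The second question was how the members changed with treatment within each genotype. In WT mice 9 of 10 members fell from control to recovery, all but *Ctss* (12.2% of all genes fell). The largest changes were those of *H2-Oa* at -3.35 (SE 1.09, adjusted p = 0.0375) and *H2-DMb2* at -3.24 (SE 1.09, adjusted p = 0.0436), and the 7 class II genes lay between -1.66 and -2.18 (adjusted p = 0.0207 to 0.0493). In *Cldn2*KO mice 7 members fell (10% of all genes fell), from *H2-DMb1* at -1.87 to *H2-DMb2* at -4.07. The 3 that did not pass were *H2-DMa* at -0.62 (adjusted p = 0.433), *H2-Oa* at -2.70 (adjusted p = 0.106) and *Ctss* at -0.52 (adjusted p = 0.165). These comparisons coincide with *Hoxb13* under 10 CPM in recovery and with the *Xist* marks. WT control 2 alone separates low *Hoxb13* from recovery, and treatment and low *Hoxb13* cannot be told apart. With a *Hoxb13* term, which rests on that library, the members called without it were at -1.48 to -3.54 in WT and at -1.58 to -4.54 in *Cldn2*KO mice, and none kept its call. With *Xist* as a covariate 4 passed in each genotype. B cell markers fell too (6 of 10 in WT and 1 of 10 in *Cldn2*KO mice), as did dendritic cell markers (5 of 9 and 2 of 9), macrophage and monocyte markers (8 of 12 in each genotype) and smooth muscle markers (5 of 8 and 8 of 8). Of 12 T and NK cell markers 1 fell in WT mice and 5 rose in *Cldn2*KO mice, and of 10 epithelial markers 3 fell in WT mice and 1 rose in *Cldn2*KO mice. *Kit*, a marker of ILC3, rose in both genotypes, at 1.02 (adjusted p = 0.0440) and 1.47 (adjusted p = 0.00846). The part of these cells was not tested. In WT mice the count fell to 1, 4 and 0 without WT recovery 1, 2 and 3, and to 2 and 4 without WT control 1 and 3. Of the 18 fits that each left out 1 library, whatever its group, the call of *H2-Aa* (adjusted p = 0.0493 with all libraries) was lost in 16, with fold changes from -1.51 to -2.08 over the 18, and that of *H2-DMb2* in 9. In *Cldn2*KO mice the count fell to 2 without control 3 or recovery 1 or 2. The call of *Ciita* there (adjusted p = 0.0484) was lost in 14 of the 18 fits, with fold changes from -0.35 to -2.52 over the 18 and the smallest without *Cldn2*KO control 3.

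After AOM/DSS, 7 members were lower than in controls in WT mice (6.58% of all genes were), from *Ciita* at -2.37 (SE 0.569, adjusted p = 0.0240) to *Cd74* at -3.72 (SE 0.710, adjusted p = 0.0111). *H2-Oa* and *H2-DMb2* were among the 3 that did not pass (adjusted p = 0.977 for both), in groups whose B cell markers were at 57.5 to 82.6 CPM after AOM/DSS and 9.95 to 91.5 CPM in controls. Among other markers, 4 of 10 epithelial genes fell in this comparison, *Krt20* at -2.01, *Vil1* at -1.31, *Cdx2* at -2.66 and *Car1* at -4.67, as did 3 of 8 smooth muscle markers and 1 of 12 T and NK cell markers, *Nkg7* at -2.56, while no B cell, dendritic cell, macrophage and monocyte or pan-leukocyte marker passed. Their part was not tested. Neither treatment group of this comparison lacked *Hoxb13* except for WT control 2, and without that library 6 passed. Without WT AOM/DSS 3 the count was 4. In *Cldn2*KO mice 0 members passed with edgeR (0.195% of all genes did), and the 7 class II genes lay between -0.40 and 0.34. *Ctss* there was at -0.80 (SE 0.253, adjusted p = 0.170), the 1 member with an unadjusted p under 0.05. DESeq2 called 0 and limma-voom called *Ctss* lower and *Ciita* higher. In *Cldn2*KO mice, *Xist* was over 10 CPM in 2 of 3 AOM/DSS libraries and in 0 of 3 controls.

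Against recovery, the members that passed the test after AOM/DSS went both ways in WT mice and were all higher in *Cldn2*KO mice. In WT mice 3 members were lower, *H2-Ab1* at -1.74, *H2-DMa* at -1.53 and *H2-DMb1* at -1.73 (12.4% of all genes were lower), and 2 were higher, *H2-Oa* and *H2-DMb2*, both at 3.30 (12% of all genes were higher). In *Cldn2*KO mice 6 were higher, *H2-Aa* at 2.67, *Cd74* at 2.35, *Ciita* at 2.30, *H2-Eb1* at 2.21, *H2-DMb1* at 2.06 and *H2-Ab1* at 1.79 (9.11% of all genes were higher). *H2-Aa*, *H2-Eb1* and *Cd74* did not pass in WT mice (adjusted p = 0.0763, 0.0679 and 0.0984), so that only *H2-Ab1* and *H2-DMb1* passed in both genotypes. With the reads of *H2-DMb1* and *H2-DMb2* summed, the call in WT mice was lost (-1.30, adjusted p = 0.0692), and the sum passed in *Cldn2*KO mice (2.19, adjusted p = 0.0152). All 5 of these members had AOM/DSS libraries entirely below recovery in WT mice and entirely above it in *Cldn2*KO mice, which held for 13 of all 16937 genes (0.0768%). The difference between these directions was not tested on its own. In the same comparison 7 of 10 B cell and 9 of 12 macrophage and monocyte markers rose in WT mice, and 1 of 10 and 10 of 12 rose in *Cldn2*KO mice. Dendritic cell markers rose in 2 of 9 in each genotype, T and NK cell markers fell in 4 of 12 in WT mice and in 3 of 12 in *Cldn2*KO mice, where 1 rose, epithelial markers fell in 3 of 10 in each, and 5 of 8 smooth muscle markers rose in *Cldn2*KO mice. Their part was not tested. Every recovery library and no AOM/DSS library had *Hoxb13* under 10 CPM, so low *Hoxb13* and treatment cannot be told apart here either. In WT mice the count was 0 without WT recovery 2, WT AOM/DSS 2 or WT AOM/DSS 3, 1 without WT recovery 3 and 3 without WT recovery 1, and it was 8 without *Cldn2*KO control 2 or 3. In *Cldn2*KO mice it was 0 without recovery 2, 1 without recovery 1 and 3 without AOM/DSS 3.

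The order of the 6 groups was shared by the class II chains and *Cd74*. WT controls were highest, WT recovery the next and WT AOM/DSS after that, each apart from its neighbor, and *Cldn2*KO recovery was lowest and apart from *Cldn2*KO AOM/DSS. In between, WT AOM/DSS, *Cldn2*KO controls and *Cldn2*KO AOM/DSS overlapped with their neighbors, since *Cldn2*KO control 3 reached the range of WT AOM/DSS. For *Ciita* WT recovery and WT AOM/DSS overlapped, and below them *Cldn2*KO controls overlapped with both *Cldn2*KO AOM/DSS and *Cldn2*KO recovery, which were apart from each other.

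**Figure D4:**
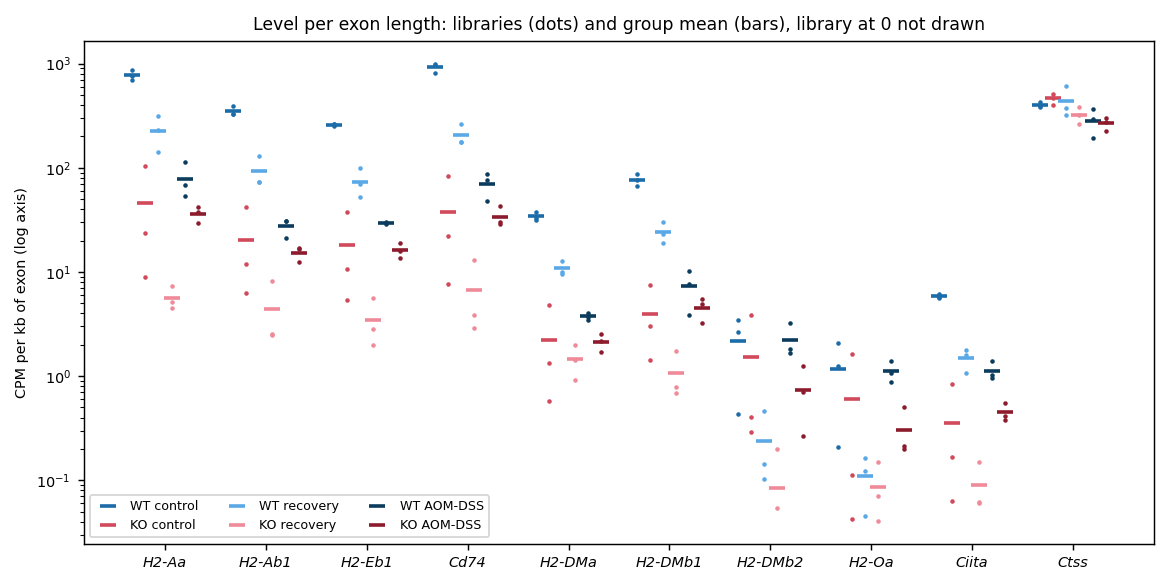
CPM per kilobase of exon length (vertical log axis) of the 10 members in the 6 groups, with dots for libraries and bars for group means, a scale on which genes can be compared. *Cd74* (928) and *H2-Aa* (774) lead in WT controls, and in *Cldn2*KO recovery *Ctss* stands at 322 while *Cd74* is at 6.64 and *H2-Aa* at 5.68.

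Per kilobase of exon length, a scale on which genes can be compared, the WT controls held *Cd74* at 928, *H2-Aa* at 774, *Ctss* at 403, *H2-Ab1* at 350 and *H2-Eb1* at 258 CPM per kb. The exchange factor chains were lower, *H2-DMb1* at 76.8 and *H2-DMa* at 34.2 CPM per kb, and *Ciita* was at 5.83, *H2-DMb2* at 2.17 and *H2-Oa* at 1.18 CPM per kb. In *Cldn2*KO recovery the protease *Ctss*, at 322 CPM per kb, stood far above its substrate *Cd74* at 6.64 and above *H2-Aa* at 5.68, *H2-Ab1* at 4.41 and *H2-Eb1* at 3.49 CPM per kb.

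Among the genes outside the list whose log2 CPM followed the mean of the members most closely over the 18 libraries were *Psmb9* (r = 0.941), *Mir5107* (0.925), *Psmb8* (0.923), *Tap1* (0.902), *Psme2b* (0.894), *Gm4841* (0.888), *Irgm2* (0.887), *AU020206* (0.886) and *Igtp* (0.885). *Psmb8* and *Psmb9* encode immunoproteasome subunits, *Tap1* a chain of the peptide transporter for class I, and *Irgm2* and *Igtp* immunity-related GTPases. *Mir5107* lies within *Cd74* on the same strand, so its reads may be those of *Cd74*, and with *Psme2b* it stayed under 1 CPM in every group mean. These correlations are descriptions over libraries that differ in genotype, treatment, *Hoxb13* level and tissue markers.

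Of 23 other genes of the class II pathway, 19 were tested, and 1 passed the genotype test in controls: *Ctsl*, an endosomal protease, rose by 0.67 on the log2 scale in *Cldn2*KO mice (adjusted p = 0.0317). None passed in recovery or after AOM/DSS. The X box factor genes *Rfx5*, *Rfxap* and *Rfxank* were at -0.79 (adjusted p = 0.288), 0.28 and 0.33 in controls and the Y box factor genes *Nfyb* and *Nfyc* at 0.07 and -0.10, none past the test.

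**Figure D5:**
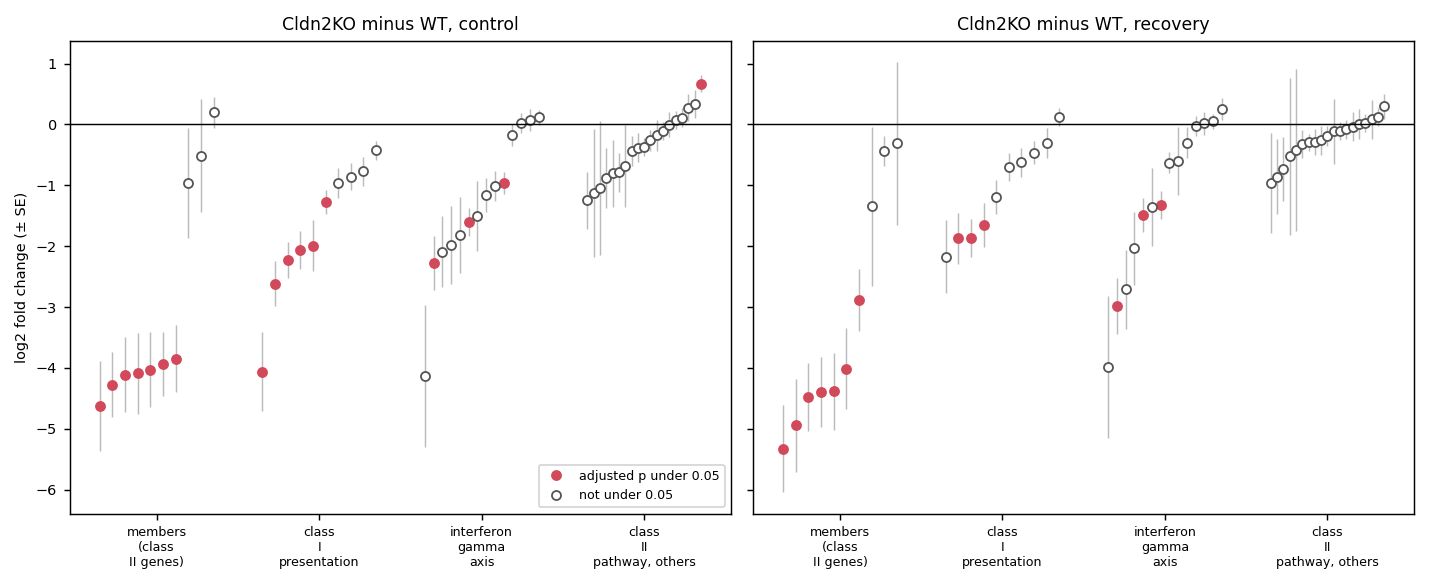
Log2 fold change of *Cldn2*KO against WT mice (vertical axis, bars of 1 standard error) for the tested genes of the member list and of the class I, interferon gamma and other class II pathway lists, in controls and in recovery, with 1 point per gene in order of size, filled where the adjusted p is under 0.05. The class I list has a median of -1.63 in controls and -0.94 in recovery, against -3.98 and -4.20 for the 10 members.

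Class I genes, which present cytosolic peptides to CD8+ T cells and are driven by NLRC5, a relative of CIITA, were lower in *Cldn2*KO mice in part. In controls 6 of 10 fell in *Cldn2*KO mice and 0 rose: *Nlrc5* by 4.06 (adjusted p = 0.00582), *Tap1* by 2.62, *B2m* by 2.23, *Psmb9* by 2.06, *Psmb8* by 1.99 and *H2-D1* by 1.28 on the log2 scale. *Nlrc5* was at 49.0, 35.9 and 41.4 CPM in WT controls and at 1.13, 1.44 and 5.005 CPM in *Cldn2*KO controls, without overlap. In recovery 3 of 10 fell, *Psmb8* by 1.87 (adjusted p = 0.0461), *Psmb9* by 1.87 (adjusted p = 0.0166) and *Tap1* by 1.66 (adjusted p = 0.0418), and after AOM/DSS 0 did.

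Of the interferon gamma axis, 14 of 15 genes were tested, and 3 fell in each of controls and recovery, with list medians of -1.33 and -0.98. In controls these were *Igtp* at -2.28 (adjusted p = 0.0208), *Irgm1* at -1.60 (adjusted p = 0.00348) and *Irf1*, an activator of the interferon response, at -0.96 (adjusted p = 0.0146). In recovery they included *Igtp* at -2.98 (adjusted p = 0.0114) and *Irgm1* at -1.32 (adjusted p = 0.0211). None passed after AOM/DSS. *Ifng* itself had too few reads to be tested: 0, 5 and 7 reads in WT controls, 0 in each *Cldn2*KO control, 11, 14 and 3 in WT recovery and 1, 4 and 0 in *Cldn2*KO recovery.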

How the data were processed

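Colon RNA of both genotypes was sequenced on a NovaSeq instrument as 18 libraries in 6 groups. The authors counted reads per gene, and the deposited values are raw read counts for 47729 genes on GRCm38, with 2 lanes per library that were summed here. The submitters' processing notes name HISAT2 and featureCounts of Subread, whereas the study's methods name TopHat2 as the aligner. Tool versions, strand setting and the handling of multimapping reads are not given in the sources used here. Both can shift counts between *H2-DMb1* and *H2-DMb2* and between antisense partners.

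Counts were fitted with edgeR 4.0.16 (R 4.3.3): filterByExpr kept 16937 genes and dropped 30792, libraries were scaled by TMM, and all 18 libraries entered 1 quasi-likelihood model of the 6 groups, which was first tested on simulated data. Calls were made at a Benjamini-Hochberg adjusted p under 0.05 over all genes kept, and every p in the text comes from it unless DESeq2 1.42.0 or limma-voom (limma 3.58.1) is named. Levels are TMM-scaled CPM, per kilobase of the table's exon length where genes are compared. The standard error of a fold change is its size divided by the root of the F statistic. Replicate numbers come from the titles in controls and otherwise from accession order. The biological coefficient of variation was 0.315.

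All 10 members are named in every comparison. From the lists (other class II pathway, interferon gamma axis, class I presentation, and markers of B cells, dendritic cells, macrophages and monocytes, T and NK cells, ILC3, all leukocytes, epithelium, smooth muscle and posterior Hox genes), up to 8 genes called in a genotype comparison are named by size, and the 10 genes most like the members in pattern are named too, except for items that are not reported here. The members and lists were chosen with earlier results of these data known, so their counts are descriptions. Promoter sequences come from RefSeq, build GRCm38.p6. Alternatives covered scaling, filters, tools, the libraries fitted, terms for *Hoxb13* under 10 CPM and *Xist* over 10 CPM, summed paralogs, and each library left out.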

Additional observations from a re-analysis of the deposited data

Results flagged for a closer look

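From recovery to AOM/DSS, 5 members had differences of opposite sign in the 2 genotypes, with every WT library after AOM/DSS below every WT recovery library and every *Cldn2*KO library after AOM/DSS above every *Cldn2*KO recovery library. Of all 16937 genes tested, 3304 were lower without overlap in WT mice, 3221 were higher without overlap in *Cldn2*KO mice, and 13 did both (0.0768%). *H2-Aa* differed by -1.53 on the log2 scale in WT (adjusted p = 0.0763 with edgeR) and by 2.67 in *Cldn2*KO mice, a difference of 4.20. *Cd74* was at -1.54 (adjusted p = 0.0984) and 2.35, a difference of 3.88, and *H2-Eb1* at -1.32 (adjusted p = 0.0679) and 2.21, a difference of 3.53. These 3 did not pass the test in WT mice. *H2-DMb1* was at -1.73 and 2.06, a difference of 3.79, and *H2-Ab1* at -1.74 and 1.79, a difference of 3.53, and both passed in each genotype. With the reads of *H2-DMb1* and its paralog *H2-DMb2* summed, the call in WT mice was lost (-1.30, adjusted p = 0.0692). The difference between the genotypes was not tested. All 6 recovery libraries had *Hoxb13* under 10 CPM and no AOM/DSS library did, so that mark and treatment cannot be told apart.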

How the results depend on the processing

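The 7 members lower in *Cldn2*KO controls were also 7 under every other scaling, filter, tool and covariate, except that 1 passed when only the groups compared were fitted and 0 with the replicate number of the titles as a block in the 6 control libraries. Same-numbered control libraries deviated together with correlations of 0.157, 0.002 and 0.079, and those of unlike number with -0.168 to 0.08. With 3 libraries per group these values cannot tell whether the numbers pair the libraries. Leaving out single libraries gave 3 to 7 in controls and 0 to 7 in recovery, and 0 in every setting after AOM/DSS.

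From control to recovery the count of 9 in WT mice became 2 with no filter, 0 with the *Hoxb13* term and 4 with the *Xist* term, and 0 to 9 with a library left out. The count of 7 in *Cldn2*KO mice became 2, 0 and 4 under the same settings, 0 with only the groups compared, and 2 to 7 with a library left out. From control to AOM/DSS, the count of 7 in WT mice was 4 to 7 with a library left out, and the count of 0 in *Cldn2*KO mice was 2 with limma-voom, 1 with only the groups compared and 0 with any library left out. From recovery to AOM/DSS, the count of 5 in WT mice became 0 with no filter or with the *Hoxb13* or *Xist* term, 8 with DESeq2, limma-voom or only the groups compared, 3 with *H2-DMb1* and *H2-DMb2* summed, and 0 to 8 with a library left out. The count of 6 in *Cldn2*KO mice became 0 with the *Hoxb13* term and 0 to 7 with a library left out. The recovery interaction had 1 call with limma-voom and 0 with any library left out, and the AOM/DSS interaction 6 with DESeq2, 7 with limma-voom and 0 to 7 with a library left out. In these comparisons with recovery the *Hoxb13* term is separated from treatment by WT control 2 alone, so its counts say nothing of stability. Other causes were not tested.

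Of the 10 genes most like the members, 8 were shared without WT control 2 and 6 with Spearman correlation. Among uncalled values, *H2-Oa* in controls ranged from -3.83 to -0.23 and *H2-DMb2* there from -2.63 to -0.0013 with a library left out, *Ctss* after AOM/DSS ranged from -0.30 to 0.14, *H2-Oa* in *Cldn2*KO recovery against control from -3.30 to 0.15, and *H2-DMa* in that comparison from -1.07 to 0.62, with 0.15 under limma-voom. Of 730 values of single members outside the left-out libraries, 632 kept their direction and side of the threshold, 84 lost their call, 13 gained it and 1 changed sign. The depth limits *H2-Oa* and *H2-DMb2* in recovery, where a group held as few as 7 reads of *H2-Oa*.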
